A study of Mus musculus with 6 samples.

Results

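The genes described here encode contractile proteins of smooth muscle and heart: Myl7, Actg2, Acta2, Actc1, Tagln, Cnn1, Myl9, Tpm1, Tpm2 and Myh11. They were measured in cultured mouse keratinocytes, which form the epidermis, after loss of Gpx4, the enzyme that reduces lipid peroxides in membranes. Myl7 and Actg2 were chosen by their rise in the knockout arrays of this series, and the other 8 were added for their function, to ask whether the rest of a contractile programme rose with them. Of 18194 genes with a probe set of their own, all 10 members were measured, by 19 of the 45037 probe sets tested. Array probe sets annotated to 1 gene symbol were used, and where a gene had several, the one with the highest mean over the 6 arrays stands for the gene.

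The 3 knockout arrays each carried RNA of a pool of Gpx4 KO keratinocytes, and the 3 control arrays RNA of a pool of control keratinocytes, with 1 pool of each genotype from each of litters A, B and C. All pools came from newborn mice on a C57BL6/FVB background, and all cultures contained 100 nM sodium selenite. The cre recombinase that removed Gpx4 was under the keratin 14 promoter, so deletion depends on cells that use this promoter, and any other cell in the culture can keep the gene. How many animals made up a pool and which alleles the controls carried are not given in the sources used here.

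In muscle, actin filaments slide along myosin filaments, and the force is set by the light chains of myosin and by proteins that lie along actin, such as tropomyosins and calponin. Smooth muscle genes of this kind are switched on together by serum response factor (SRF) with myocardin or the myocardin-related factors (MRTFs), at a DNA element called the CArG box. Keratinocytes are not muscle, but they hold nonmuscle actin and myosin, and they express several of these genes, among them tropomyosins, in the cell cortex and stress fibres.

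Promoter sequences of 7 members were at hand from RefSeq (GRCm38.p6), each with 250 bases before and 50 after the annotated start. A CArG box was searched on both strands as an exact match to CCWWWWWWGG, where W is A or T. An exact match was present in the promoters of Myl7, Actc1 and Myl9. None lay within this window of Acta2, Cnn1, Tpm1 or Tpm2. Near matches, such as ccctatatgg in the windows of Acta2 and Actc1, were not counted, so a lack of CArG-like elements is not shown. Of 32851 mouse promoters of this length 1.63% held an exact match. The 3 promoters are printed because they share an exact match while the levels of their genes differed: Myl7 was higher in knockouts, Myl9 lower and Actc1 dim in both groups. Each is given 5′ to 3′ on the strand of the gene, with the exact match in capitals and near matches left in lower case. The first base of the exact match is at position -61 from the annotated start in Myl7, -47 in Actc1 and -161 in Myl9.
Myl7, chr11:5898733-5899032, minus strand: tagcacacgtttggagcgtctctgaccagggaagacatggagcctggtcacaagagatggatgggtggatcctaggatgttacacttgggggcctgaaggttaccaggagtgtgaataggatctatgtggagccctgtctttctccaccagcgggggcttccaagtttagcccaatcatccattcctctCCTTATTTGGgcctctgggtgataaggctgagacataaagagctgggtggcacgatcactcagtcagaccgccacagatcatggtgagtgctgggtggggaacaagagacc
Actc1, chr2:114052826-114053125, minus strand: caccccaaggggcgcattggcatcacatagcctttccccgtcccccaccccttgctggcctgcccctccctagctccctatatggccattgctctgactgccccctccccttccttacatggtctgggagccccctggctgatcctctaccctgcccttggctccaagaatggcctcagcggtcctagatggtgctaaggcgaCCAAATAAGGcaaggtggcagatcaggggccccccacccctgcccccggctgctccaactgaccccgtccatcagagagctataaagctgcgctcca
Myl9, chr2:156775214-156775513, plus strand: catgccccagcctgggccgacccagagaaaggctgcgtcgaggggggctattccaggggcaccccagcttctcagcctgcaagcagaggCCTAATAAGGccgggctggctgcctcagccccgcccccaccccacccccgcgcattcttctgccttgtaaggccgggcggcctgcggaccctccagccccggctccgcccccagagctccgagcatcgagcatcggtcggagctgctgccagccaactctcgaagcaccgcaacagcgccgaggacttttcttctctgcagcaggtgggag
The matches are a description of these letters and do not show that SRF binds there. The motif CATTCC, an element bound by TEAD factors, was found on either strand in the promoters of Myl7, Acta2 and Tpm1, against 14.66% of all promoters. The AP-1 element TGANTCA was found on neither strand in any of them, 0 of the 7, against 7.81% of all promoters.

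The arrays were keratinocyte arrays by their markers. Of 12 keratinocyte markers 11 had an intensity above 100 on every array, and their summed level was 35216 to 36617 in knockouts and 35761 to 37962 in controls. By sign of the log2 change 4 of the 12 were positive and 8 negative. At an adjusted p under 0.05 in limma 0 were higher and 1 lower, against 0.158% and 0.262% of all probe sets. The lower one was the differentiation keratin Krt10 (log2 change -1.42 ± 0.08, adjusted p = 0.00922). At an unadjusted p under 0.05 0 were higher and 4 lower, against 7.06% and 7.58% of all probe sets. Among the 4 were the basal-layer factor Trp63 (-0.43 ± 0.08, adjusted p = 0.0817) and Krt1 (-1.21 ± 0.22, adjusted p = 0.0836), a differentiation keratin. Krt15, a basal keratin, was at 5.01 ± 5.19 in the knockouts (SD, n = 3), against 268 (litter A), 239 (B) and 5.58 (C) among control arrays (-2.49 ± 0.65, adjusted p = 0.164). The control of litter C lay within the range of the knockouts for this gene. The part of these markers in the results was not tested. The deposited arrays were not at a common level, with a mean, after trimming both tails, of 73.8 to 92.45 in knockouts and 73.2 to 114.8 in controls, and were therefore quantile-normalized. Gpx4 was lower in all 3 litters, with an intensity of 229 ± 26.4 in knockouts and 528 ± 27.8 in controls (SD, n = 3 each; log2 change -1.15 ± 0.09, limma adjusted p = 0.0206). It was negative in all 17 alternatives and called in 7 of them, not as deposited (adjusted p = 0.122) or without an intensity trend (adjusted p = 0.1004), and its other probe set was not called (-1.40 ± 0.21, adjusted p = 0.0630). The Y-linked Eif2s3y, a transcript of male cells, was at 2.82 ± 2.00 in knockouts and 173 ± 15.6 in controls. It was low in every knockout array and high in every control array, and the labels used here give no sex. A difference of sex between the pools therefore cannot be told apart from the genotype on these arrays, and its part in the results was not tested. Fibroblast markers (16 measured) had a summed level of 2089 to 2830 in knockouts and 980 to 2070 in controls; their part in the results was not tested.

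Levels below are quantile-normalized intensities, and log2 changes, ± SE, are knockout minus control on log2(intensity + 16), fitted in limma with a block for each litter. This scale understates the change of dim genes. The median intensity of an array was 17.5, and the files used here give no detection call. An adjusted p under 0.05 over all 45037 probe sets counted as a call. By this rule 0.158% of all probe sets were called higher in the knockout and 0.262% lower.

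Myl7, the regulatory light chain of atrial myosin, was at 627, 502 and 308 in the knockouts of litters A, B and C, against 145, 150 and 68.9 in the controls. Both litter C arrays were the dimmest of their group, and the lowest knockout lay above the highest control. The log2 change was 1.86 ± 0.11, a 3.62-fold difference, and the litters gave 1.99 (A), 1.64 (B) and 1.93 (C). These values chose the gene, so no test of them is given.

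Actg2, the gamma actin of visceral smooth muscle, was at 181, 129 and 107 in the knockouts of litters A, B and C, against 38.1, 31.4 and 44.4 in the controls. The groups did not overlap, and litter C had the smallest gap because its knockout was the lowest and its control the highest. The log2 change was 1.50 ± 0.18, a 2.83-fold difference, and the litters gave 1.87 (A), 1.62 (B) and 1.02 (C). This gene too was chosen by these values. They were taken from the 12 highest log2 changes among genes that were called and rose in 3 of 3 litters, where Myl7 stood at place 8 and Actg2 at place 12. The nearest gene outside these 12 was Procr, with a log2 change of 1.49. With a pseudocount of 64 the log2 change of Myl7 was 1.54 and that of Actg2 0.98. In the 17 alternative settings both kept a positive sign, between 1.54 and 2.13 for Myl7 and between 0.98 and 1.83 for Actg2. These settings reuse the arrays that chose both genes, so the kept signs are a description only.

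**Figure D1:**
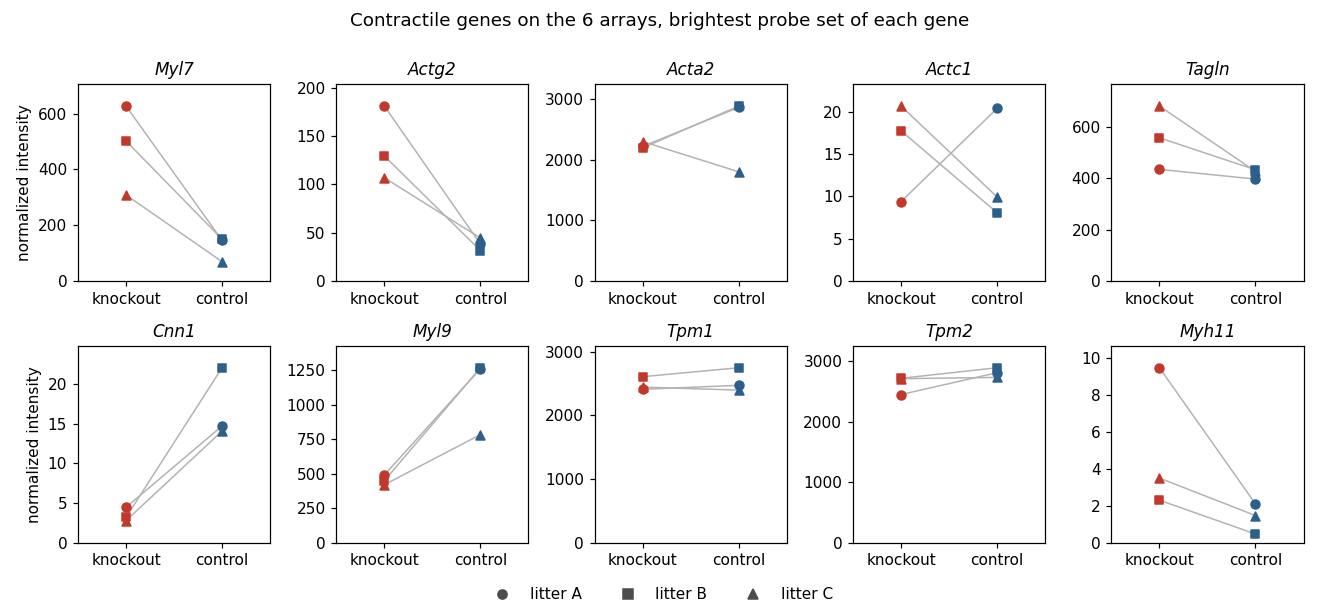
Normalized intensity (vertical axis, from 0, with its own range in each panel) of the brightest probe set of the 10 contractile genes in the 3 knockout arrays (left, red) and the 3 control arrays (right, blue), with a line joining the arrays of a litter. Myl7 and Actg2 lie higher in every knockout, Myl9 and Cnn1 lower, and Tpm1 and Tpm2 stay between 2395 and 2890.

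Among the other 8 members the signs were mixed, with 3 positive and 5 negative. Of these 8, 0 were called higher by limma and 1, Myl9, was called lower; at the shares of all probe sets given above, 0 higher calls among 8 genes are no result about them. At an unadjusted p under 0.05 2 were higher, Tagln and Myh11, and 2 lower, Cnn1 and Myl9. Over all probe sets 7.06% were higher and 7.58% lower at that threshold, which is also the background set beside the list counts. It includes dim probe sets, whereas each list gene is read by its brightest one, so it is low for lists of bright genes. Without the 40% dimmest probe sets, 5766 of 27022 were under that threshold in either direction, against 6592 of 45037 with them. The median log2 change of the 8 members was -0.06, against 0.00 over all probe sets, and it was -0.28, -0.08 and 0.09 in litters A, B and C. Knockout and control arrays did not overlap for 2 of the 8 in the higher direction and for 3 in the lower. Over all probe sets 8.79% did not overlap with the knockouts higher and 9.43% with the knockouts lower.

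Myl9, the regulatory light chain of smooth muscle and nonmuscle myosin, fell in the knockout. Its intensity was 491, 450 and 420 in the knockouts of litters A, B and C, against 1262, 1270 and 784 in the controls. The knockouts lay close together, and the lowest control, of litter C, was still well above them. This is a log2 change of -1.22 ± 0.13, a 2.34-fold difference (adjusted p = 0.0340 in limma). Litter by litter it came to -1.33, -1.47 and -0.88. Fewer cells with the transcript and less of it per cell cannot be told apart in pooled RNA. The call ended with the intensities scaled as deposited (-1.42, adjusted p = 0.0719), with a pseudocount of 64 (-1.15, adjusted p = 0.0524) and without an intensity trend in the variance (adjusted p = 0.114), and with the mean over the probe sets of each gene (adjusted p = 0.0680). It also ended without litter A (-1.17, adjusted p = 0.213) or litter B (-1.10, adjusted p = 0.386). In fits with no litter block, it ended without any 1 array other than the litter C control (adjusted p between 0.157 and 0.245). The sign was negative in all 17 alternatives.

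Myl7 and Myl9 both encode regulatory light chains of myosin, and their log2 changes had opposite signs in each of the 3 litters. The nonmuscle light chains stood between them. Myl12a, a nonmuscle regulatory light chain, was at 4051 ± 223 in knockouts and 3876 ± 235 in controls, with a log2 change of 0.06 ± 0.08 (adjusted p = 0.780). Its close paralog Myl12b had a log2 change of -0.42 ± 0.10 (adjusted p = 0.134), and the essential light chain Myl6 one of -0.05 ± 0.15 (adjusted p = 0.922). Of the other light chains of heart, Myl2, Myl3 and Myl4 had mean intensities of 7.15, 17.3 and 10.8 in knockouts and 2.82, 14.7 and 6.91 in controls, at or under the array median in most arrays.

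The actins also differed from one another. Acta2, the alpha actin of vascular smooth muscle and of myofibroblasts, was at 2217, 2193 and 2297 in the knockouts of litters A, B and C, against 2860, 2882 and 1798 in the controls. The knockouts lay between the controls of litters A and B above and that of litter C below. The log2 change was -0.14 ± 0.15 (adjusted p = 0.744; 95% interval -0.50 to 0.23). Litters A and B gave -0.36 and -0.39, and litter C gave 0.35. Without litter C, Acta2 was called lower in limma (-0.38, adjusted p = 0.0278). It was also called lower without the control of litter C alone, in a fit with no litter block (-0.36, adjusted p = 0.0253). The suffix of this probe set marks probes that can match more than 1 transcript, so signal of other actins is possible in it; this was not tested. The other 2 Acta2 probe sets were below the array median on all 6 arrays, with log2 changes of -0.28 ± 0.12 and 0.05 ± 0.09 (adjusted p = 0.358 and 0.860).

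Actc1, the alpha actin of heart, was at 9.38, 17.8 and 20.7 in the knockouts of litters A, B and C, against 20.4, 8.07 and 9.93 in the controls. These values straddle the array median and the groups overlap, with a log2 change of 0.16 ± 0.24 (adjusted p = 0.822). The cytoplasmic actins were among the brightest probe sets, and neither was called. Actb was at 6171 ± 131 in knockouts and 6123 ± 263 in controls (log2 change 0.01 ± 0.07, adjusted p = 0.962, 95% interval -0.16 to 0.18). Actg1 was at 7499 ± 345 in knockouts and 7660 ± 355 in controls (-0.03 ± 0.07, adjusted p = 0.887, 95% interval -0.19 to 0.13). For the skeletal actin Acta1 the log2 change came to 0.25 ± 0.17 (adjusted p = 0.560).

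Tagln and Cnn1 are both actin-binding markers of smooth muscle differentiation, and neither passed the test. Tagln, or transgelin, was at 434, 557 and 681 in the knockouts of litters A, B and C, against 396, 433 and 426 in the controls. All knockouts lay above all controls, by little in litter A, and the log2 change of 0.38 ± 0.12 was not called (adjusted p = 0.222). By litter it was 0.13, 0.35 and 0.66, and it was 0.19 with the intensities scaled as deposited, where the groups overlapped. Cnn1, or calponin, was at 4.45, 3.18 and 2.77 in the knockouts of litters A, B and C, against 14.7, 22.1 and 14.1 in the controls. The groups did not overlap, but 5 of the 6 values lie below the array median. Its log2 change of -0.75 ± 0.14 was not called (adjusted p = 0.0931), and was -1.998 with a pseudocount of 1 (adjusted p = 0.0877) and -0.26 with 64 (adjusted p = 0.108). It was called in limma when the arrays were set to a common median by a shift (-0.73, adjusted p = 0.0288). It was also called without the control of litter C, in a fit with no litter block (-0.81, adjusted p = 0.0272). For the nonmuscle calponin Cnn2 the log2 change came to -0.19 ± 0.11 (adjusted p = 0.488).

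The tropomyosins, which wind along the actin filament, were bright and nearly level. Tpm1 was at 2408, 2606 and 2442 in the knockouts of litters A, B and C, against 2470, 2746 and 2395 in the controls, so the groups overlapped. Its log2 change was -0.03 ± 0.07 (adjusted p = 0.900; 95% interval -0.19 to 0.14). Tpm2 was at 2447, 2715 and 2709 in the knockouts of litters A, B and C, against 2808, 2890 and 2730 in the controls. Its knockouts lay just below its controls, and the log2 change of -0.10 ± 0.07 was not called (adjusted p = 0.597; 95% interval -0.28 to 0.08). The nonmuscle tropomyosins Tpm3 (0.14 ± 0.07, adjusted p = 0.438) and Tpm4 (0.02 ± 0.07, adjusted p = 0.919) were not called.

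Each of these genes had further probe sets, and those of Tpm1 did not all point one way. A dimmer Tpm1 probe set was at 207, 279 and 367 in the knockouts of litters A, B and C, against 156, 153 and 319 in the controls. Its log2 change of 0.45 ± 0.14 was not called (adjusted p = 0.211), whereas that of the second bright probe set was -0.11 ± 0.07 (adjusted p = 0.510). The other 3 Tpm2 probe sets had log2 changes of -0.21 ± 0.09, -0.31 ± 0.19 and 0.07 ± 0.14 (adjusted p between 0.348 and 0.865). Which transcripts each probe set reads was not tested here.

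Myh11, the smooth muscle myosin heavy chain and the most specific marker of that cell type among the members, was near the bottom of the scale. It was at 9.48, 2.30 and 3.50 in the knockouts of litters A, B and C, against 2.10, 0.47 and 1.47 in the controls. All 6 values were below the array median, and the log2 change of 0.27 ± 0.11 was not called (adjusted p = 0.317). Its other probe set was at 1.00, 5.82 and 5.03 in knockouts and 0.37, 1.00 and 5.42 in controls, with a log2 change of 0.13 ± 0.11 (adjusted p = 0.638).

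**Figure D2:**
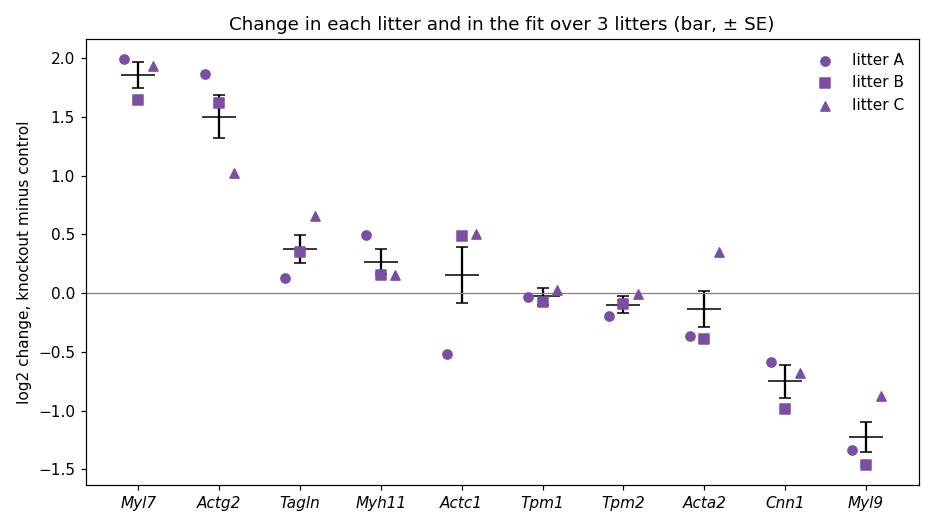
Log2 change, knockout minus control, of the 10 contractile genes in litters A, B and C (circle, square, triangle) and in the fit over the litters (bar, ± SE), ordered from high to low. Myl7 and Actg2 stand apart at 1.86 and 1.50, the next gene is Tagln at 0.38, and Myl9 is lowest at -1.22.

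**Figure D3:**
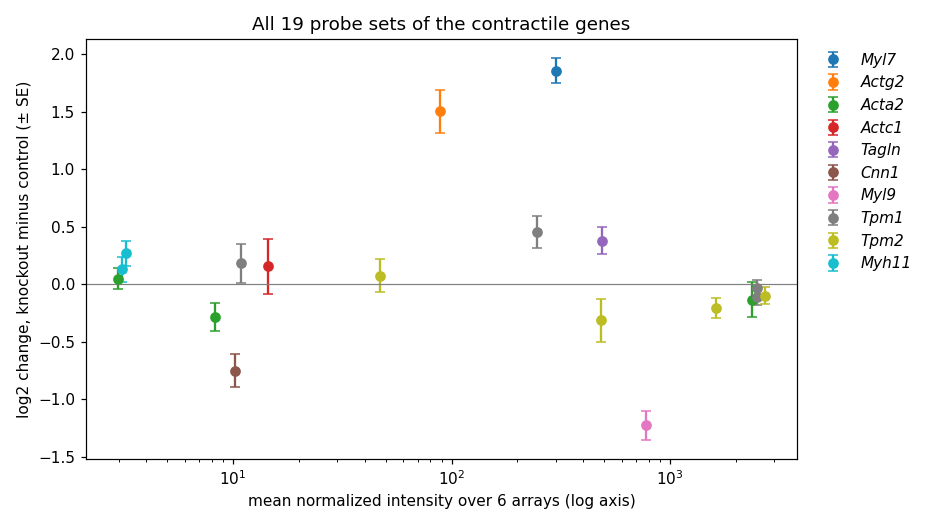
Log2 change ± SE, knockout minus control, of all 19 probe sets of the contractile genes against their mean normalized intensity over the 6 arrays (log axis). The bright probe sets of Acta2, Tpm1 and Tpm2 lie near 0, Myl7 and Actg2 lie above at middle intensities, and Myl9 lies below at a higher one.

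With litter C left out, 3.01% of all probe sets were called higher and 3.15% lower. Of the 8 members beside Myl7 and Actg2, 0 were then called higher (limma) and 2 lower, Acta2 (-0.38) and Myl9 (-1.40, adjusted p = 0.000454). Tagln had a log2 change of 0.24 without this litter (adjusted p = 0.210) and Cnn1 one of -0.79 (adjusted p = 0.0668).

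Other genes of the contractile apparatus were examined in lists that included partners of the members, with some genes in more than 1 list. Of 26 measured smooth muscle contractile and cytoskeletal genes, 0 were called in either direction by limma, and at an unadjusted p under 0.05 3 were higher and 6 lower. Their median log2 change was -0.09. Ppp1r14a, an inhibitor of myosin light chain phosphatase, was at 25.5 ± 9.72 in knockouts and 70.8 ± 33.4 in controls (SD, n = 3 each; log2 change -1.004 ± 0.18, adjusted p = 0.0817). The integrin Itga8 had a log2 change of 0.85 ± 0.16 (adjusted p = 0.0925), Pgm5 one of -0.47 ± 0.12 (adjusted p = 0.158) and the LIM protein Csrp1 one of -0.31 ± 0.08 (adjusted p = 0.163). Lmod1, a leiomodin of smooth muscle, was between 0.9 and 2.7 on all arrays, and Smtn, or smoothelin, had a log2 change of -0.12 ± 0.12 (adjusted p = 0.717).

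Myl7 is an atrial gene, so genes of the heart and striated sarcomere were listed too. Of 32 measured, 0 were called in either direction by limma (6 higher and 0 lower at an unadjusted p under 0.05), and the median log2 change was 0.09. On every array 21 of the 32 were under an intensity of 16, and 0 were above 100 on all arrays. The summed level was 678 to 764 in knockouts and 397 to 458 in controls. Without Nppb and Tnnt2, left out after their values were seen, the other 30 genes summed to 266 to 293 in knockouts and 220 to 265 in controls. Nppb, the precursor of the natriuretic peptide BNP, was at 255, 331 and 317 in the knockouts of litters A, B and C, against 81.1, 72.4 and 181 in the controls. All knockouts lay above all controls (1.40 ± 0.22, adjusted p = 0.0682). Tnnt2, the cardiac troponin T, differed by 0.73 ± 0.13 on the log2 scale (adjusted p = 0.0831), Tcap by 0.45 ± 0.15 (adjusted p = 0.266) and Myl1 by 0.31 ± 0.10 (adjusted p = 0.255). The atrial natriuretic peptide precursor Nppa was between 5.6 and 12.6 on all arrays.

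Nonmuscle actomyosin genes were mostly bright. Of 19 measured, 0 were called in either direction by limma (0 higher and 3 lower at an unadjusted p under 0.05), with a median log2 change of -0.07. Beside Myl12b, the 3 with the smallest p were the nonmuscle myosin heavy chain Myh9 (-0.51 ± 0.13, adjusted p = 0.155), the actinin Actn4 (-0.34 ± 0.11, adjusted p = 0.227) and the profilin Pfn1 (0.17 ± 0.09, adjusted p = 0.426).

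The regulators of the programme were not called in either direction. Of 22 measured SRF and MRTF regulators, 0 passed in limma (2 higher and 3 lower at an unadjusted p under 0.05), and the median log2 change was 0.06. The medians within litters A, B and C were -0.06, -0.13 and -0.11, and the fitted median was -0.08 as deposited and -0.05 without litter C, so this list has no settled direction. Srf itself was at 193, 206 and 203 in the knockouts of litters A, B and C, against 276, 271 and 247 in the controls. All knockouts lay below all controls, and the log2 change of -0.37 ± 0.10 was not called (adjusted p = 0.167). Mrtfa changed by -0.24 ± 0.11 on the log2 scale (adjusted p = 0.358) and Mrtfb by -0.22 ± 0.09 (adjusted p = 0.355). Myocd, or myocardin, the SRF partner of muscle, was between 0.9 and 8.6 on all arrays. Log2 changes of 0.54 ± 0.09 (adjusted p = 0.0772) for Tead1, a factor of the YAP pathway, -0.28 ± 0.09 (adjusted p = 0.245) for Elk4 and 0.39 ± 0.13 (adjusted p = 0.255) for the formin Diaph3 did not pass either.

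Of 18 measured SRF and MRTF targets used outside muscle, 3 rose and 0 fell (median log2 change 0.12), against 0.158% and 0.262% of all probe sets. Those shares are low for bright genes such as most of these. Without the 40% dimmest probe sets, 521 of 27022 were called higher and 609 lower. At an unadjusted p under 0.05 6 were higher and 5 lower, namely Srf, Filip1l, Lima1, Tgfb1i1 and Csrp1. The median was -0.06 with the intensities scaled as deposited and 0.00 with a shift to a common median. Thbs1, the matrix protein thrombospondin 1, was at 1292, 1202 and 1013 in the knockouts of litters A, B and C, against 744, 598 and 505 in the controls (0.92 ± 0.08, adjusted p = 0.0249). All knockouts lay above all controls. Ccn1, a matrix-associated early response protein, had a log2 change of 1.09 ± 0.12 (adjusted p = 0.0369). Ptgs2, known foremost as the inducible cyclooxygenase, had one of 2.31 ± 0.24 (adjusted p = 0.0343). For the adaptor Tgfb1i1 it was -0.78 ± 0.12, which was not called (adjusted p = 0.0645). Ccn1 and Ptgs2 were known to be higher in these arrays when the list was made.

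Markers of other cells that carry contractile genes were set beside the members. Of 12 vascular smooth muscle and pericyte markers, 0 rose and 1 fell, the proteoglycan Cspg4 (-1.80 ± 0.23, adjusted p = 0.0452), with 9 of 12 positive in sign and a median log2 change of 0.12. Their summed level was 421 to 451 in knockouts and 438 to 520 in controls, so the groups overlapped. Without Cspg4, left out after its values were seen, it was 399.5 to 425 in knockouts and 344 to 365 in controls, with the knockouts higher. At an unadjusted p under 0.05 2 were higher, Itga8 (given above) and the intermediate filament Des (0.65 ± 0.27, adjusted p = 0.332), and 2 lower. Kcnj8, Abcc9, Anpep and Myocd were under 16 on every array, and Rgs5, a pericyte gene, was at 8.71 ± 1.66 in knockouts and 22.1 ± 2.96 in controls (-0.62 ± 0.15, adjusted p = 0.146). Of 16 fibroblast markers, 1 rose, the matrix protein Sparc (0.80 ± 0.11, adjusted p = 0.0485), and 0 fell, with a median log2 change of 0.44 (0.52 and 0.97 in litters A and B, -0.11 in litter C). For Sparc the lowest knockout, of litter A, lay below the highest control. The summed level of the 16 markers did not overlap, but the lowest knockout was at 2089 and the highest control at 2070. This gap was small beside the levels of Vim, the brightest of them. Vim was at 948, 836 and 1038 in the knockouts of litters A, B and C, against 225, 196 and 616 in the controls. A higher summed level of the other markers is thus not shown. Vim (1.58 ± 0.25, adjusted p = 0.0682) and Col1a1 (1.124 ± 0.20, adjusted p = 0.0831) were higher in value and Postn lower (-1.30 ± 0.23, adjusted p = 0.0803). Dpt, Lum and Mfap5 were under 16 on every array. Of 8 endothelial markers, 0 were called in either direction by limma (0 higher and 1 lower at an unadjusted p under 0.05), and Pecam1, Cdh5, Tek, Tie1 and Emcn were under 16 on every array. The part of other cells in the levels of Acta2, Tagln and the other members was not tested.

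**Figure D4:**
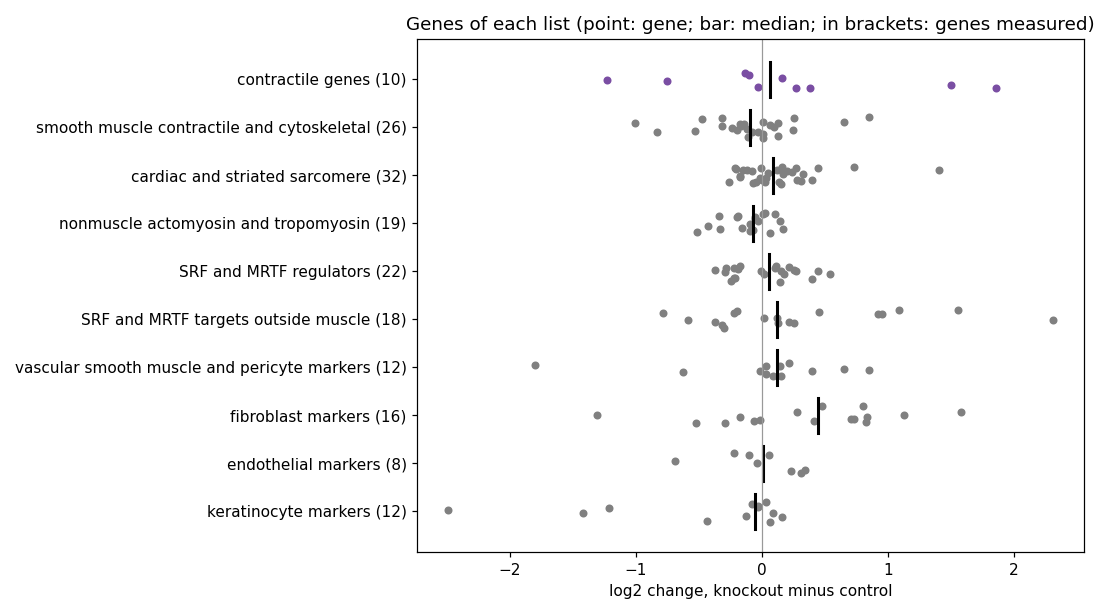
Log2 change, knockout minus control, of each gene (point) in the contractile genes and in 9 further lists, with the median of each list as a bar and the number of genes measured in brackets. The medians lie between -0.09 and 0.44, and the contractile genes run from -1.22 to 1.86.

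The genes with profiles over the 6 arrays most like those of Myl7 and Actg2 are given as a description only. The likeness uses the 6 values by which both were chosen, so other strong risers come first by construction. It was the root mean square difference of log2 values, each gene centred on its own mean. Nearest to Actg2 were the kinase anchor Akap12 (0.12), the protein C receptor Procr (0.12), tissue factor F3 (0.19), follistatin Fst (0.20) and Ripor2 (0.20). Nearest to Myl7 were Mal (0.34), Dlc1 (0.36), the platelet chemokine precursor Ppbp (0.42), U90926 (0.42) and Ripor2 (0.45). Akap12 was at 276, 252 and 195 in the knockouts of litters A, B and C, against 63.2, 61.1 and 86.4 in the controls. Mal was at 709, 536 and 240 in the knockouts of litters A, B and C, against 160, 147 and 32.8 in the controls, with both litter C arrays lowest in their group as for Myl7. Myl7 and Actg2 differed from each other by 0.46. Tpm1 and Tpm2 were the closest pair among the members, at 0.06.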

How the data were processed

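Total RNA of 6 keratinocyte pools, extracted with Trizol, was labelled with biotin by an in vitro transcription kit and hybridised to 1-colour Affymetrix arrays, per the labels' protocols. For every array the authors deposited a linear intensity of each probe set. Their background correction, probe summary and scaling are not stated in the labels. The number of arrays limits the precision.

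The 64 control probe sets were left out. Intensities were quantile-normalized, turned into log2(intensity + 16) and fitted in limma 3.58.1 (R 4.3.3; lmFit, eBayes with an intensity trend) with litter as a block, with Benjamini-Hochberg adjustment over 45037 probe sets. Litters are named in the array titles and pair the arrays. The correlation of residuals within a litter was 0.175 in A, 0.0474 in B and 0.208 in C. P-values measure the spread of the knockout minus control difference over the litters, with variances moderated towards a trend taken from all probe sets.

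Symbols are those of the platform annotation, updated through RefSeq. Of the tested probe sets 34945 had 1 gene, 932 several and 9160 none listed. Of 178 list entries 175 were measured. The members and lists were chosen with earlier results of these data known. Named were the members, Gpx4, paralogs of the members, up to 4 genes of a list with the smallest p, any called list gene, and the 5 nearest profiles of Myl7 and Actg2. A few more list genes were named after their values were seen. They were Smtn, Lmod1, Nppa, Myl2, Myl3, Myl4, Cnn2, Filip1l, Lima1, Fos, Egr1, Fhl2, Mrtfb, Mrtfa and markers under 16. Eif2s3y, which is in no list, was also named after its values were seen. The fit was checked on simulated arrays.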

Additional observations from a re-analysis of the deposited data

How the results depend on the processing

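The main setting used quantile normalization and a paired fit by litter. Among the alternatives, the deposited scale and the shift to a common median had no quantile normalization. Fits without 1 array had no litter block, so they were not paired. Calls over all probe sets depended on the setting: 71 higher and 118 lower became 3 and 32 as deposited, 198 and 512 after a shift of arrays to a common median, 271 and 330 with a pseudocount of 1, 27 and 32 with 64, 521 and 609 without the 40% dimmest probe sets, and 0 and 6 without an intensity trend (6655 at an unadjusted p under 0.05). The share of higher calls moved with the scaling as these counts show. With no replicate block 60 were higher and 75 lower, and Myl9 was still called (adjusted p = 0.0489). When 1 litter or 1 array was dropped, calls ran from 0 to 1354 higher and from 0 to 1419 lower. Without the control of litter C 1136 and 1294 were called, against 1 and 2 without litter A and 0 and 0 without litter B (limma; 4143 and 3700 at an unadjusted p under 0.05). The calls thus needed litters A and B and were more numerous without litter C; the cause was not tested.

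Of the 8 members beside Myl7 and Actg2, 0 were called higher in each of the 17 alternatives (limma); Cnn1 and Myh11 were too dim for the fit without the 40% dimmest probe sets and were not tested in it. The count called lower was 1, and it was 0 as deposited, with a pseudocount of 64, with the mean of the probe sets of a gene and without an intensity trend, 2 after the shift to a common median, and 0 to 3 when 1 litter or 1 array was dropped. Their median log2 change lay between -0.22 (as deposited) and 0.00. Actc1 and Tpm1, neither of them called, changed sign in 2 alternatives each. The median of all probe sets was -0.07 as deposited and within 0.01 of 0 in the others.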
